A study of Mus musculus with 10 samples.

Results

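Small nucleolar RNAs (snoRNAs) and small Cajal body-specific RNAs (scaRNAs) were examined in arrays of RNA co-purified with 4E-T from embryonic mouse cortex. The genes were taken by symbol alone (Snora, Snord or Scarna followed by a number and at most 1 letter), without use of any measured value, and each was represented by the probe set with the highest mean among those annotated to that single symbol. This gave 78 of the 22180 genes on the array with such a probe set: 26 H/ACA box snoRNAs (Snora), 47 C/D box snoRNAs (Snord) and 5 scaRNAs (Scarna). By mean level over the arrays, 57 of the 78 lay above the median of all genes, among them 22 Snora, 30 Snord and all 5 Scarna genes.

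SnoRNAs are short noncoding RNAs of the nucleolus. In mammals most are cut out of introns of longer host transcripts and are held in stable protein particles. C/D box snoRNAs bind fibrillarin, Nop56, Nop58 and Snu13 and mostly direct 2′-O-methylation of ribosomal RNA, while H/ACA box snoRNAs bind dyskerin (Dkc1), Nhp2, Nop10 and Gar1 and mostly direct pseudouridylation. ScaRNAs carry the same boxes, are held in Cajal bodies and guide the modification of spliceosomal small nuclear RNAs. 4E-T, the product of Eif4enif1, binds the cap-binding protein eIF4E, is found in cytoplasmic processing bodies and represses translation of the mRNAs it holds.

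Cortices of CD1 mouse embryos at embryonic day 12 to 13 were dissected and gave 3 groups, with no genotype or drug differing between them. 4ET-IP (3 arrays) is RNA recovered with an antibody to 4E-T, IgG-IP (3 arrays) is RNA recovered with control IgG, and input (4 arrays) is total RNA of the same kind of tissue. The series describes biological replicates, and the sources do not state how many embryos went into each array. The comparison of 4ET-IP with IgG-IP addresses which RNAs associate with 4E-T beyond what the control antibody recovers, and the comparisons with input show how each recovered pool differs from the RNA of the tissue. Cortical precursor and neuron markers lay at a median percentile of 94.6 among all genes in input (13 of 14 measured), erythroid markers at 94.0 (3 of 6 measured), and endothelial, microglial and mesenchymal markers at 46.7 to 50.2.

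Input 1 and 4ET-IP 1 stood apart before any comparison. Their median log2 values were 3.54 and 3.52, against 4.33 to 4.54 on the other 8 arrays, and 7.52% of probe sets held equal values on the pair, against at most 0.138% for any other pair. No IgG-IP array lies on this lower scale. All differences below are therefore log2 differences ± standard error from one limma fit over the 10 arrays with a term for this pair, and a gene was called where its Benjamini-Hochberg adjusted p over all 22180 genes was under 0.05. Results are given beside a fit with the groups alone and a fit of the 8 other arrays where these change them. Where input 1 or 4ET-IP 1 alone is left out, the term for the pair absorbs the other. Both of these fits therefore equal that of the 8 arrays and are not separate checks. The deposited values were normalized (RMA), so they describe relative levels and not the amount of RNA recovered.

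In the 4E-T pull-down the snoRNA and scaRNA genes were lower than in the IgG pull-down. 47 of 78 (60.3%) were called lower and 0 were called higher, where 2.92% of all genes were called lower and 7.57% higher. At unadjusted p under 0.05 the counts were 59 lower and 2 higher, and the share of all genes at this threshold was not computed. The fitted difference was below 0 for 73 of 78 genes, with a median of -1.34 against 0.03 over the other genes. Values of the arrays did not overlap between the groups, with 4ET-IP lower, for 55 of 78 genes, where 14.5% of all genes showed this. With the groups alone 32 were called lower (0.64% of all genes), and without the pair on the lower scale 41 (2.33% of all genes). The count was 32 without 4ET-IP 2 and 36 without 4ET-IP 3, and 28 of the 47 genes stayed called whichever single array was left out. Without input 1 or 4ET-IP 1 alone the fit equals that without the pair. For the other fits with a single array left out the share of all genes was not computed. In these bulk samples fewer cells of a type and less RNA per cell cannot be told apart, and a probe set inside an intron does not separate the mature snoRNA from unspliced host RNA.

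All classes had this direction. Of the H/ACA genes, 19 of 26 were called lower, with a median difference of -1.55. Their call count was 11 with the groups alone and 10 without 4ET-IP 2. Of the C/D genes, 24 of 47 were called lower, with a median of -1.29. Of the scaRNA genes, 4 of 5 were called lower, with a median of -3.35, equal to a 10.2-fold lower level. Whether the classes differ from each other was not tested.

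**Figure D1:**
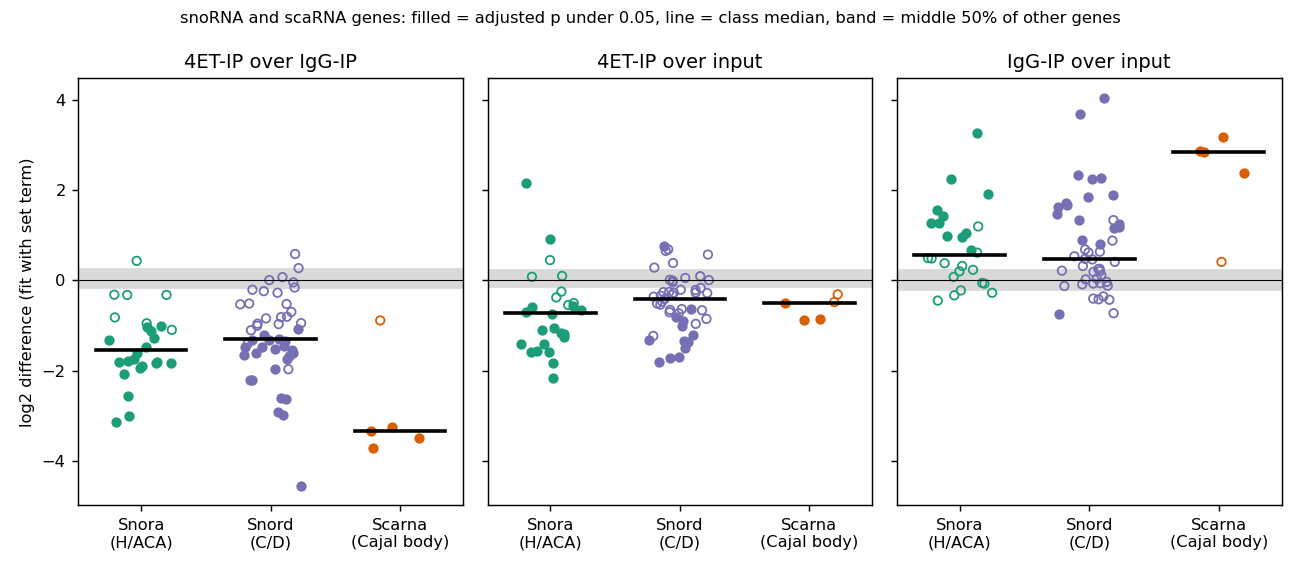
Each point is 1 gene, placed by its fitted log2 difference (vertical axis) in 4ET-IP over IgG-IP, 4ET-IP over input and IgG-IP over input, with H/ACA, C/D and scaRNA genes apart. Filled points have an adjusted p under 0.05, black lines are class medians (-1.55, -1.29 and -3.35 in the first panel) and the grey band holds the middle 50% of the other genes; in the first panel most points lie under the band, and in the last panel many lie above it.

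The C/D snoRNA Snord89 (probe set 17222564), which lies in no other gene of the reference table, had the lowest difference. It read 11.59, 11.89 and 11.77 (log2 intensity) in IgG-IP 2, 3 and 4, and 6.28, 6.71 and 7.51 in 4ET-IP 1, 2 and 3. The inputs read 6.46, 7.70, 8.0 and 7.59. The IgG-IP arrays were thus high and both other groups were low, with every 4ET-IP array more than 4 units under every IgG-IP array. The difference between 4ET-IP and IgG-IP was -4.56 ± 0.22 (limma adjusted p = 3.38e-06), or 23.5-fold lower, and IgG-IP was 16.5-fold above input (4.04 ± 0.21, limma adjusted p = 5e-06). Against input 4ET-IP differed by -0.52 ± 0.20 and was not called (limma adjusted p = 0.0993).

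The scaRNAs Scarna6, Scarna10, Scarna17 and Scarna2 showed the same order of groups. Scarna10 (probe set 17471059), inside the condensin subunit gene Ncapd2, read 9.07, 8.89 and 9.01 in IgG-IP, 4.16, 5.46 and 5.32 in 4ET-IP 1, 2 and 3, and 4.05, 5.93, 5.53 and 6.18 in input 1 to 4. The 3 IgG-IP values lay within 0.2 of each other and well above all the rest. 4ET-IP and input overlapped over the 10 arrays, but only through the pair on the lower scale. On the other 8 arrays 4ET-IP lay under every input, while 4ET-IP 1 lay above input 1. The difference of Scarna10 between the pull-downs was -3.49 ± 0.20 (limma adjusted p = 6.06e-06). Scarna6 (probe set 17215372), inside the autophagy gene Atg16l1, read 8.17, 8.96 and 7.90 in IgG-IP and 3.93, 4.68 and 4.37 in 4ET-IP, a difference of -3.71 ± 0.26 (limma adjusted p = 4.27e-05). Scarna17 (probe set 17357717) read 11.56, 11.72 and 11.53 in IgG-IP and 6.79, 8.17 and 8.31 in 4ET-IP, a difference of -3.35 ± 0.18 (limma adjusted p = 3.62e-06); a second probe set of this gene gave -4.02. Scarna2 (probe set 17409376), which lies in no other gene, read 9.38, 9.94 and 9.15 in IgG-IP and 5.97, 6.19 and 5.82 in 4ET-IP, a difference of -3.25 ± 0.29 (limma adjusted p = 0.000138). For each of these 4 genes every 4ET-IP array was under every IgG-IP array, and the call stayed when any single array was left out and with the groups alone.

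Scarna8 (probe set 17426979) was the exception among the scaRNAs. It read 7.01, 5.75 and 6.54 in IgG-IP and 4.00, 5.54 and 5.88 in 4ET-IP, so the groups overlapped. Its difference was -0.89 ± 0.32 and it was not called (limma adjusted p = 0.103).

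**Figure D2:**
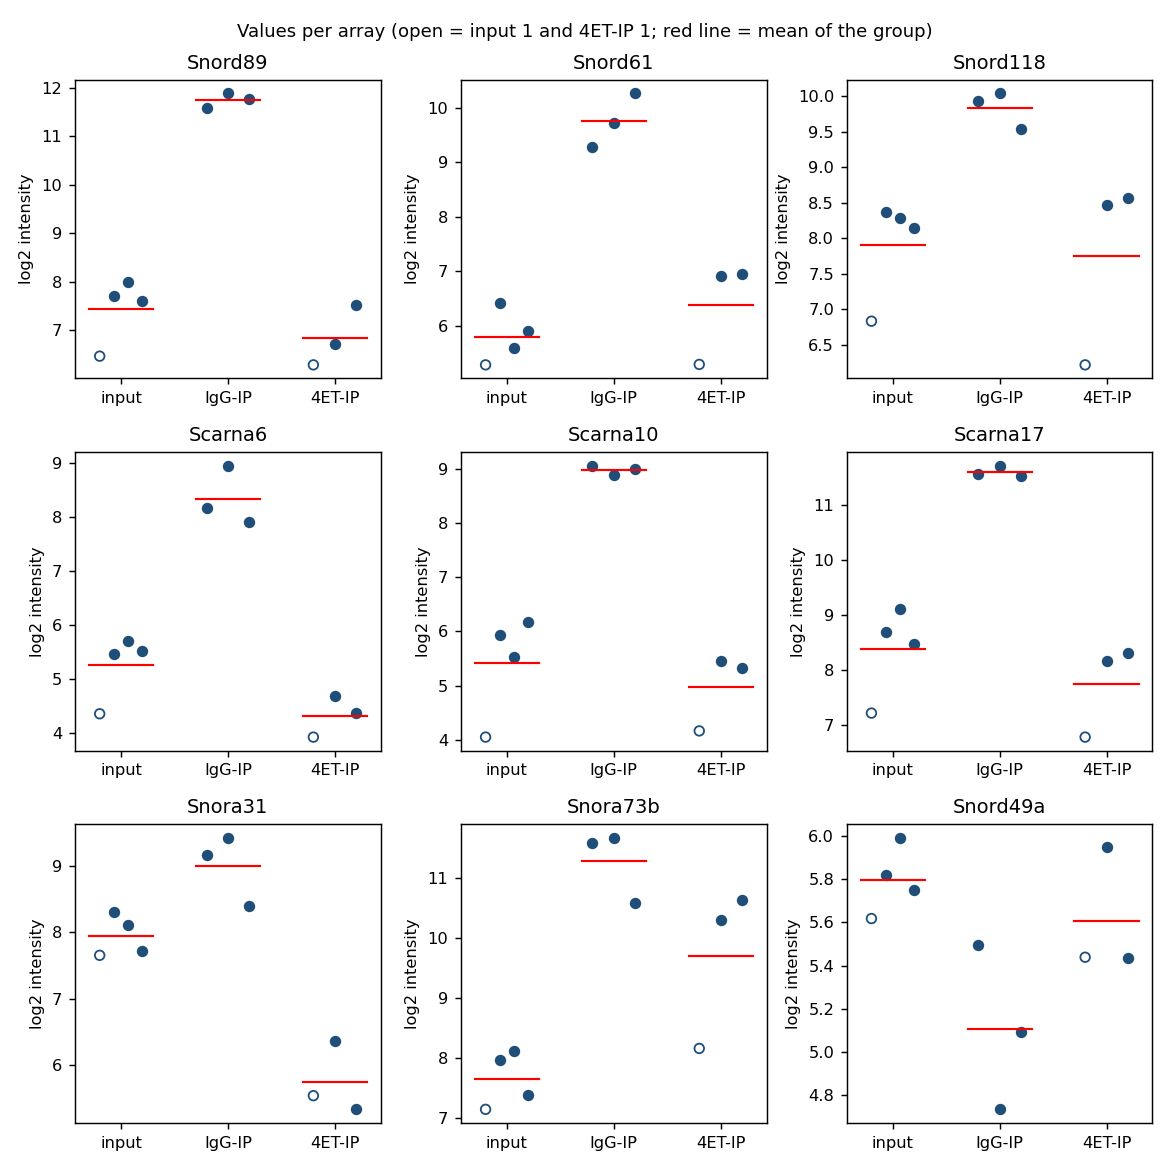
Log2 intensity (vertical axes, each panel on its own range) of 9 genes on each array, by group, with the group mean as a red line and input 1 and 4ET-IP 1 as open circles. IgG-IP stands above both other groups for Snord89, Snord61, Snord118 and the scaRNAs; 4ET-IP stands below both other groups for Snora31; Snora73b is above input in both pull-downs; IgG-IP is lowest for Snord49a.

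Among the H/ACA snoRNAs the lowest differences between the pull-downs were those of Snora31, Snora75 and Snora69. Snora31 (probe set 17302054), in the gene of the translationally controlled tumour protein (Tpt1), read 9.17, 9.43 and 8.39 in IgG-IP and 5.54, 6.37 and 5.33 in 4ET-IP. The inputs, at 7.65, 8.30, 8.11 and 7.72, lay between the pull-downs without overlap. The difference was -3.13 ± 0.31 (limma adjusted p = 0.000215) against IgG-IP and -2.17 ± 0.28 (limma adjusted p = 0.000294) against input, the lowest of all 78 genes in the latter comparison. Snora75, in the nucleolin gene Ncl, read 6.49, 5.32 and 7.67 in IgG-IP and 4.38, 3.12 and 3.43 in 4ET-IP, a difference of -3.02 ± 0.49 with the widest spread of the 3 (limma adjusted p = 0.00308). Snora69, in the ribosomal protein gene Rpl39, differed by -2.56 ± 0.25 (limma adjusted p = 0.000215).

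After Snord89 the C/D genes with the lowest differences were Snord61, Snord72, Snord1b and Snord35b. Snord61 (probe set 17541917), in the RNA-binding protein gene Rbmx, read 9.28, 9.73 and 10.27 in IgG-IP, 5.29, 6.92 and 6.95 in 4ET-IP, and 5.28, 6.42, 5.59 and 5.90 in input. Here IgG-IP was high, and on the 8 arrays outside the lower pair 4ET-IP lay slightly above input. The difference was -2.99 ± 0.30 against IgG-IP (limma adjusted p = 0.000215), while the 0.68 ± 0.27 over input was not called (limma adjusted p = 0.102). Snord72, in Rpl37, differed from IgG-IP by -2.92 ± 0.30, Snord1b by -2.62 ± 0.29 and Snord35b by -2.61 ± 0.27. These 3 calls, and those of Snora31, Snora75, Snora69 and Snord61, stayed with any single array left out and with the groups alone.

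The remaining called genes ranged from -2.22 ± 0.37 for Snord73b, in the ribosomal protein gene Rps3a1, to -1.02 ± 0.25 for Snora19. The call of Snora19 was lost with the groups alone and without input 1, 4ET-IP 1, 4ET-IP 2 or IgG-IP 4 (limma adjusted p = 0.0559 to 0.141), while that of Snord73b, at 6.13, 5.85 and 5.20 in IgG-IP and 2.83, 4.23 and 2.70 in 4ET-IP, was kept in each of these. Snora28, in the translation initiation factor gene Eif5, was lower by -1.94 ± 0.21 (limma adjusted p = 0.000285) where its host differed by 0.48. Snora47, in Zbed3, was lower by -1.83 ± 0.16 (limma adjusted p = 0.000118) where its host differed by 0.38. Snord70, in the C/D core protein gene Nop58, was lower by -1.96 ± 0.22 (limma adjusted p = 0.000366) where its host differed by 0.17. These 3 genes, picked after their values were seen for their small errors, kept their calls with any single array left out and with the groups alone.

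At the other end, 5 genes had differences at or above 0 and none was called. Snord49a read 5.50, 4.73 and 5.09 in IgG-IP and 5.44, 5.95 and 5.44 in 4ET-IP, which overlap. Its difference of 0.58 ± 0.21 had a limma adjusted p of 0.11, and it passed without IgG-IP 2 (0.78, limma adjusted p = 0.0297) and after median centring or renewed quantile normalization with the groups alone. Snora35, in the serotonin receptor gene Htr2c, differed by 0.43 ± 0.18, Snord15a by 0.27 ± 0.25, Snord37 by 0.07 ± 0.20 and Snord55 by 0.00 ± 0.21. With the groups alone Snord15a (-0.14), Snord37 (-0.14) and Snord55 (-0.10) fell on the other side of 0. Snora35 and Snord37 were read at low intensities, 2.07 to 3.64 and 1.87 to 2.82 over the 10 arrays.

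Against input, 4ET-IP held less of many of these RNAs, and the difference was smaller. Called lower were 32 of 78 genes, where 8.86% of all genes were, and called higher were 3, where 10.4% of all genes were. The median difference was -0.56 over the 78 genes and 0.04 over the other genes. By class, 17 H/ACA genes were lower and 2 higher (median -0.73), 12 C/D genes were lower and 1 higher (median -0.42), and 3 scaRNA genes were lower (median -0.50). This comparison depended on the fit and on single arrays. With the groups alone 14 genes were called lower (3.58% of all genes), and on the 8 arrays outside the lower pair 19 (7.2% of all genes). Leaving out input 1 or 4ET-IP 1 alone gave the same fit as these 8 arrays. The count was 16 without 4ET-IP 2 and 21 without 4ET-IP 3. In the pair on the lower scale, 4ET-IP 1 was below input 1 for 63 of 78 genes, with a median difference of -0.65 where the median over all genes was 0.

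Besides Snora31, the genes lowest against input were Snora75 (-1.82 ± 0.44), Snord73b (-1.81 ± 0.33), Snord16a (-1.72 ± 0.30), Snord19 (-1.69 ± 0.33), Snora74a (-1.60 ± 0.40), Snora69 (-1.59 ± 0.23) and Snora20 (-1.56 ± 0.28), all called. Without 4ET-IP 2 or 4ET-IP 3 the call of Snora75 was lost (limma adjusted p = 0.0519 to 0.0708), and without input 1, 4ET-IP 1 or 4ET-IP 3, or with the groups alone, that of Snora74a (limma adjusted p = 0.0694 to 0.108). Snora20, an H/ACA snoRNA in the chaperonin gene Tcp1, read 3.62, 3.04 and 3.86 in 4ET-IP, 4.55, 5.76 and 4.91 in IgG-IP and 4.64, 5.19, 5.20 and 5.32 in input. Its 4ET-IP values lay under all the others, and IgG-IP and input overlapped. Snord104 (probe set 17257591), a C/D snoRNA chosen here after its values were seen for their small spread, read 9.25, 9.33 and 9.59 in 4ET-IP, 10.86, 10.83 and 10.74 in IgG-IP and 10.48, 10.82, 10.87 and 10.73 in input. It was 2.48-fold lower than input (-1.31 ± 0.12, limma adjusted p = 7.11e-05) and 2.52-fold lower than IgG-IP (-1.33 ± 0.14, limma adjusted p = 0.00025), while IgG-IP and input differed by 0.02 ± 0.13. Its calls stayed with any single array left out.

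The 3 scaRNAs called lower than input were less firm. Scarna2 differed by -0.87 ± 0.26, Scarna6 by -0.86 ± 0.23 and Scarna17 by -0.50 ± 0.16, with limma adjusted p of 0.0324, 0.0205 and 0.0432. None of the 3 was called with the groups alone, without 4ET-IP 2 or without 4ET-IP 3. Without input 2 the calls of Scarna2 and Scarna17 were lost, without input 3 those of all 3, without input 4 that of Scarna2, and without input 1 or 4ET-IP 1 that of Scarna17, and the adjusted p of the lost calls ranged from 0.0588 to 0.206. Scarna10 (-0.31 ± 0.18) and Scarna8 (-0.48 ± 0.28) were not called.

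Snora73b, Snora73a and Snord49b were higher in 4ET-IP than in input. Snora73b (probe set 17430831), an H/ACA RNA known for a role in ribosomal RNA processing, read 8.16, 10.30 and 10.63 in 4ET-IP 1, 2 and 3, 11.58, 11.67 and 10.58 in IgG-IP and 7.15, 7.96, 8.12 and 7.39 in input. Every 4ET-IP array was above every input array, and the lowest IgG-IP array lay just under the highest 4ET-IP array. Over input it was 4.48-fold higher (2.16 ± 0.34, limma adjusted p = 0.000873), and this call stayed with any single array left out and with the groups alone. Its neighbour Snora73a (0.92 ± 0.27) was not called with the groups alone (limma adjusted p = 0.312) or without 4ET-IP 2, input 3, 4ET-IP 3 or input 4 (limma adjusted p = 0.0828 to 0.2). Snord49b (0.77 ± 0.24) was not called with the groups alone (limma adjusted p = 0.301), with the replicate number as a block (limma adjusted p = 0.0526), or without input 2, 4ET-IP 2, input 3, 4ET-IP 3, IgG-IP 3 or input 4 (limma adjusted p = 0.0508 to 0.257). In both pull-downs these 3 genes were above input, and IgG-IP exceeded input by 3.26 ± 0.35, 2.24 ± 0.28 and 2.24 ± 0.25.

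The control pull-down itself held more of these RNAs than input. Between IgG-IP and input, 32 of 78 genes were called higher, where 6.14% of all genes were, and 1 was called lower, where 10.5% of all genes were. The median difference was 0.57 over the 78 genes and 0.03 over the other genes. 11 H/ACA genes (median 0.55), 17 C/D genes (median 0.48) and 4 scaRNA genes (median 2.85) were higher. With the groups alone 24 were called higher (1.45% of all genes) and 0 lower (3.99% of all genes). Of the 33 calls, 27 stayed with any single array left out. The 3 comparisons share arrays, so their values are given side by side and their likeness was not tested.

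Snord89 was highest over input, followed by Snord61 (3.68 ± 0.27, 12.8-fold), Snora73b (9.6-fold), Scarna10 (3.18 ± 0.18), Scarna6 (2.86 ± 0.24), Scarna17 (2.85 ± 0.16) and Scarna2 (2.38 ± 0.27). All 7 stayed called with any single array left out and with the groups alone. Snord118, the U8 snoRNA that is transcribed from its own promoter and acts in ribosomal RNA processing, read 9.93, 10.04 and 9.53 in IgG-IP, 6.22, 8.47 and 8.57 in 4ET-IP and 6.84, 8.37, 8.29 and 8.15 in input. IgG-IP was above both other groups, which overlapped over the 10 arrays. On the 8 arrays outside the lower pair 4ET-IP was above every input, while 4ET-IP 1 was below input 1. Snord118 was 2.76-fold above input in IgG-IP (1.46 ± 0.19, limma adjusted p = 0.000371), and 4ET-IP differed from input by -0.01 ± 0.18. Between the pull-downs its difference was -1.47 ± 0.21 (limma adjusted p = 0.00141), which was not called with the groups alone (limma adjusted p = 0.0973).

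Snord49a was the 1 gene called lower in IgG-IP than in input. It read 5.62, 5.82, 5.99 and 5.75 in input against 5.50, 4.73 and 5.09 in IgG-IP, with no overlap. The difference of -0.75 ± 0.19 (limma adjusted p = 0.0201) was not called with the groups alone (limma adjusted p = 0.129) or without input 2, input 3 or IgG-IP 3 (limma adjusted p = 0.0502 to 0.077).

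Most snoRNA genes lie inside other genes, and 74 of the 78 did so here by the reference gene table, in 60 distinct narrowest hosts (45 protein-coding genes and 15 long noncoding RNAs). Ribosomal protein genes held 18 members in 16 hosts. Of these 18, 10 were called lower in 4ET-IP than in IgG-IP (median -1.30); of 35 members in other protein-coding hosts 19 were (median -1.07), of 21 in long noncoding hosts 15 were (median -1.47), and of 4 in no host 3 were (median -2.36). Against input the medians were -1.13, -0.48, -0.38 and -0.69 in the same order, with 11, 14, 6 and 1 called lower; the 3 genes called higher all lie in long noncoding hosts. No difference between these host kinds was tested.

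Between the pull-downs the hosts' differences lay closer to 0 than those of their members. For 60 members the narrowest host was itself measured. The members' median difference between 4ET-IP and IgG-IP was -1.38 and that of the 46 hosts was -0.23. Of these hosts, 9 were called lower and 2 higher, where 2.92% and 7.57% of all genes were; with the groups alone 1 (Snhg12) was called lower and 1 (Wdr43) higher, where 0.64% and 0.708% of all genes were. The member lay below its host in 53 of 60 pairs, by a median of 1.13 in the log2 difference. Across the 60 pairs, in which members of a host share it, Pearson's r was 0.10 and Spearman's rho 0.10. Between IgG-IP and input the member lay below its host in 6 of 60 pairs, and between 4ET-IP and input in 33 of 60. In 4ET-IP over input the members' median was -0.64 and that of the hosts -0.43. Of the 46 hosts, 21 were called lower than input in 4ET-IP and 2 higher, where 8.86% and 10.4% of all genes were. With the groups alone 8 hosts were called lower and 1 higher (3.58% and 2.56% of all genes).

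**Figure D3:**
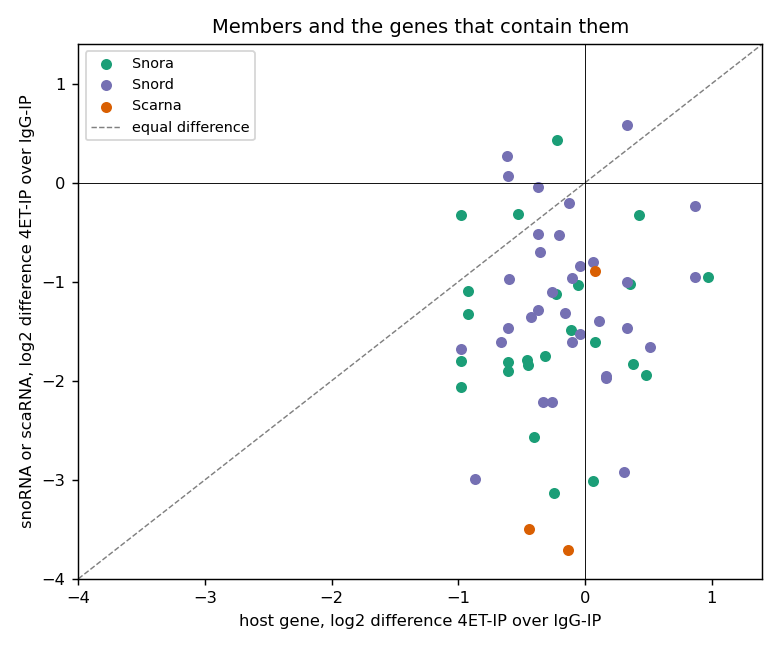
Each point is 1 of 60 members with a measured host gene. The horizontal axis is the host's and the vertical axis the member's log2 difference of 4ET-IP over IgG-IP, and the dashed line marks equal differences; 53 of the 60 points lie under it.

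Members inside 1 host gene can be set side by side, although hosts were assigned by containment without strand, so that a shared transcript was not established for them. The hosts Snhg12, 2410006H16Rik, Snhg3 and Gnl3 were picked after their values were seen, since members within them or member and host differed, and the start of each host is shown, 5′ to 3′ on the transcribed strand, with the first 20 transcribed bases of the RefSeq annotation in capitals and the 40 bases before them in lower case (build GRCm38.p6).
Snhg12, chr4:132308638-132308697, plus strand: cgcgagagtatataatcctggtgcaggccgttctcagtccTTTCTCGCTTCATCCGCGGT
2410006H16Rik, chr11:62602837-62602896, plus strand: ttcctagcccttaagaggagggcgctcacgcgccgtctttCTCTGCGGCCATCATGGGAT
Snhg3, chr4:132353667-132353726, minus strand: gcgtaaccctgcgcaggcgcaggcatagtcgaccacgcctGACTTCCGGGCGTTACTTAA
Gnl3, chr14:31019112-31019171, minus strand: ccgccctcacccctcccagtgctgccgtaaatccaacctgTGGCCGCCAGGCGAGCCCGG

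Many snoRNA hosts belong to the class of transcripts that begin with a C and a run of pyrimidines. A C at the annotated start followed by 4 pyrimidines, looked for on the transcribed strand only since the position is fixed, was found in 4 of the 46 hosts with an entry (8.70%), and in 3.01% of 27025 genes with an entry. None of the sequences shown is among the 4, and an annotated start can lie some bases from the one used in this tissue.

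Snhg12, a long noncoding host, held Snora16a, Snora44, Snord99 and Snora61. The host was lower in 4ET-IP than in IgG-IP by -0.98 ± 0.17 (limma adjusted p = 0.00381) and its members differed by -2.07 ± 0.40, -1.80 ± 0.25, -1.68 ± 0.32 and -0.32 ± 0.17. The first 3 members were called and Snora61 was not (limma adjusted p = 0.276). Snora61 read 5.56, 5.21 and 5.50 in IgG-IP and 5.16, 5.27 and 4.88 in 4ET-IP, which overlap, while Snora44 read 8.13, 7.47 and 7.13 against 5.40, 5.77 and 5.99, which do not. The call of Snora16a was lost without 4ET-IP 2 (limma adjusted p = 0.0609).

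The host 2410006H16Rik held Snord49b, Snord65 and Snord49a, whose differences between the pull-downs were -1.47 ± 0.27, -1.01 ± 0.32 and 0.58 ± 0.21, of which the first was called (limma adjusted p = 0.00559). Snord49b read 9.51, 9.74 and 10.19 in IgG-IP, 7.18, 8.31 and 8.79 in 4ET-IP and 7.25, 7.48, 7.52 and 7.30 in input. Snord65 read 9.45, 9.11 and 8.38 in IgG-IP, 7.98, 7.72 and 8.40 in 4ET-IP and 9.70, 9.68, 9.40 and 8.75 in input. These members of 1 host thus took 3 orders: IgG-IP was highest for Snord49b, input had the highest mean for Snord65, and IgG-IP had the lowest mean for Snord49a. The host itself was lower than input in both pull-downs (-1.58 ± 0.21 in 4ET-IP and -1.90 ± 0.22 in IgG-IP, limma adjusted p = 0.000346 and 0.00017).

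In Snhg3 both members, Snora73a and Snora73b, were above input in the pull-downs, while the host was lower in 4ET-IP than in input (-0.74 ± 0.16, limma adjusted p = 0.00656; 0.052 without 4ET-IP 3 and 0.0585 with the groups alone). Between the pull-downs Snora73a differed by -1.32 ± 0.31 and was called (limma adjusted p = 0.0181), but not with the groups alone or without 4ET-IP 2 or IgG-IP 3 (limma adjusted p = 0.0578 to 0.0788), and Snora73b, at -1.10 ± 0.38, was not called. In Gnl3, which encodes a nucleolar GTPase, Snord69 and Snord19 parted against input. Snord69 differed by 0.28 ± 0.17 between 4ET-IP and input and by 1.89 ± 0.17 between IgG-IP and input, and Snord19 by -1.69 ± 0.33 and -0.73 ± 0.34. Gnl3 itself differed by -0.01 ± 0.15 and 0.10 ± 0.16. In Ncl, whose protein binds pre-ribosomal RNA, Snora75 was called lower between the pull-downs and Snord82 (-0.81 ± 0.37) was not, and the host differed by 0.06 ± 0.19. Among the 46 measured hosts the largest change against input was that of Rpl3, which was lower than input by -2.86 ± 0.17 in 4ET-IP and by -2.83 ± 0.18 in IgG-IP (limma adjusted p = 1.27e-05 and 8.14e-06), whereas its members Snord83b and Snord43 differed from input by -0.64 ± 0.17 and -0.96 ± 0.33 in 4ET-IP and by 0.88 ± 0.17 and -0.12 ± 0.34 in IgG-IP.

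**Figure D4:**
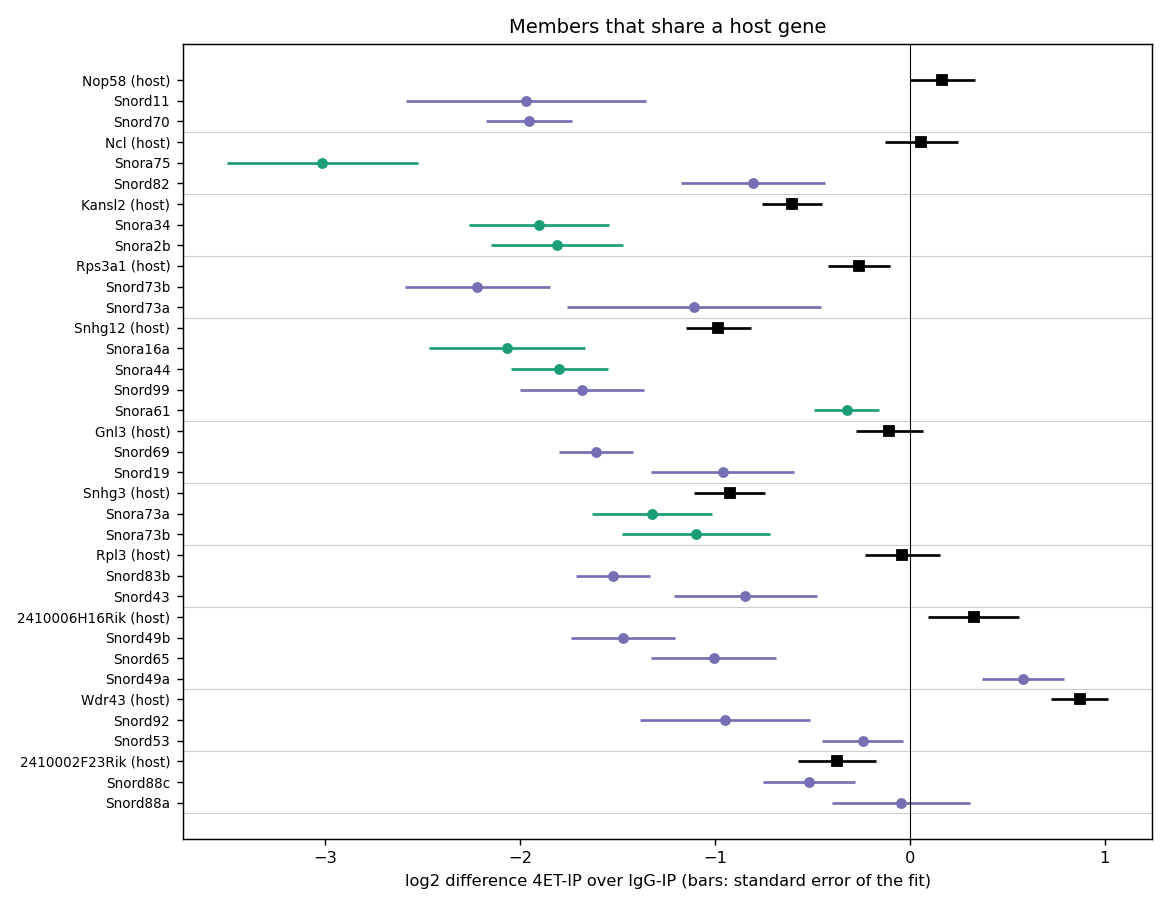
Fitted log2 difference of 4ET-IP over IgG-IP (horizontal axis, bars are standard errors) for the 11 hosts with more than 1 member (black squares) and their 25 members (circles, H/ACA in green, C/D in violet). Members of a host lie at different distances from it, from Snora75 at -3.02 in Ncl to Snord49a at 0.58 in 2410006H16Rik.

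The mRNAs for snoRNA-binding proteins were looked at as a list of 30 symbols for core proteins, assembly factors and Cajal body factors. On it Nhp2l1 and Bcd1 are other names of the listed Snu13 and Znhit6. Fbl, for fibrillarin, had no probe set of that single symbol and was not measured. This left 27 measured genes. Between the pull-downs 4 were called higher in 4ET-IP and 2 lower, where 7.57% and 2.92% of all genes were, with a median of 0.09. The H/ACA core protein mRNA Nhp2 was higher by 1.10 ± 0.19 (limma adjusted p = 0.00473), Tgs1, for the enzyme that makes the trimethyl cap, by 1.03 ± 0.19 (limma adjusted p = 0.00554), and Nufip1, for a particle assembly factor, by 0.92 ± 0.14 (limma adjusted p = 0.00203). Nop10, also an H/ACA core protein, was higher by 0.67 ± 0.16 (limma adjusted p = 0.0195; 0.0564 to 0.0719 without 4ET-IP 2, 4ET-IP 3 or IgG-IP 3). Of these 4, Nhp2 alone was called with the groups alone. The lower 2 were Wrap53, which brings scaRNAs to Cajal bodies (-0.58 ± 0.17), and the assembly ATPase Ruvbl1 (-0.57 ± 0.15), and both lost their calls with the groups alone (limma adjusted p = 0.202 and 0.367) and without most single arrays (limma adjusted p up to 0.261 and 0.154). The C/D core mRNAs Nop56, Nop58 and Snu13 differed by -0.21 ± 0.18, 0.17 ± 0.16 and -0.23 ± 0.17, and Dkc1, Gar1 and the Cajal body scaffold Coil by -0.32 ± 0.22, -0.05 ± 0.19 and 0.04 ± 0.17, none called.

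Against input, 10 of the 27 mRNAs were called lower in 4ET-IP and 2 higher, where 8.86% and 10.4% of all genes were, and 11 were called lower in IgG-IP and 0 higher, where 10.5% and 6.14% were. With the groups alone 4 were lower and 1 higher in 4ET-IP (3.58% and 2.56% of all genes), and 7 lower and 0 higher in IgG-IP (3.99% and 1.45% of all genes). Nhp2 was lower than input by -0.73 ± 0.17 in 4ET-IP and by -1.83 ± 0.18 in IgG-IP, and Nop10 by -0.61 ± 0.14 and -1.28 ± 0.15. In 4ET-IP both calls were lost without 4ET-IP 2 or 4ET-IP 3 (limma adjusted p = 0.0583 to 0.0661) and with the groups alone (limma adjusted p = 0.0739 and 0.0959). For both mRNAs input was highest and IgG-IP lowest, whereas for Snord89, Scarna2, Scarna6, Scarna10 and Scarna17 IgG-IP was highest.

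A further 28 snoRNA and scaRNA symbols appear only on probe sets that carry several symbols and so name no single gene. In all, 46 probe sets with several symbols named a snoRNA or scaRNA, 16 of them for a Snord116 pair with identical values on every array (-0.94 between the pull-downs, not called). Of the other 30, some of which repeat a set of symbols, 23 were called lower in 4ET-IP than in IgG-IP and 0 higher. Over all probe sets these shares were 4.58% and 3.74%, and the median of the 30 was -1.50. Between 4ET-IP and input 11 were called lower and 1 higher, where 7.51% and 5.43% of all probe sets were. The higher 1 carried the symbols Snord4a and Tlcd1 (1.76 ± 0.38). Between IgG-IP and input 13 were called higher and 1 lower, where 4.74% and 6.65% of all probe sets were.

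Summed on the linear scale, the cortical markers ranged from 8661 to 10898 in 4ET-IP, from 8676 to 9989 in IgG-IP and from 5397 to 8868 in input. The erythroid markers ranged from 1680 to 2153, from 1166 to 2012 and from 1866 to 3117. Between the pull-downs 5 of the 13 cortical markers were called higher in 4ET-IP and 1 lower, where 7.57% and 2.92% of all genes were, and 0 of the 3 erythroid ones in either direction; their part in the snoRNA results was not tested.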

How the data were processed

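RNA of 10 samples was amplified (NuGEN Pico), biotin-labelled and hybridised to Affymetrix mouse gene arrays, per the labels' protocols. The deposited values are log2 intensities that the authors made by RMA (per the submitters' processing notes, Affymetrix Expression Console was used); not given in the sources used here are software versions and the genome build. The number of arrays limits precision. Of 41345 probe sets, 23521 carry 1 symbol, 1814 several and 16010 no entry in the platform annotation; probe sets of 1 symbol gave 22180 genes (highest mean per gene).

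limma 3.58.1 in R 4.3.3 (lmFit, eBayes) was fitted to all genes and 10 arrays with group and a term for the pair on the lower scale, with Benjamini-Hochberg adjustment over all genes and called at 0.05; the script was tested on simulated data. SE is that of the fit. Hosts are genes that contain a member in RefSeq's gene table (GRCm38.p6); that table gives no strand, so the planned same-strand condition was not applied. No member sequences were used here. Genes were named by size of difference in each comparison and class, by class Scarna, by opposite direction and by shared host; Snord104, Snord118, Snord1b, Snord35b and the members of Snhg12 and Rpl3 were named after their values were seen. Members, lists and tests were chosen with earlier results of these data known. Within-group correlations over all genes tested were 0.975 to 0.992. P-values rest on the spread between these samples, which eBayes moderates over all genes.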

Additional observations from a re-analysis of the deposited data

Results flagged for a closer look

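In input, the group with 4 arrays, the value of input 1 for Snord90 was 1.47 where the other inputs read 2.55 to 2.61, a gap of 0.952 of the group's range, and its value for Scarna2 was 5.89 where the others read 7.14 to 7.39, a gap of 0.833. Both exceed Dixon's critical ratio for 4 samples. Among the 36 members tested in this way these were 2, and chance alone gives about 1 in 20. Input 1 is one of the pair of arrays on the lower scale; the part of that scale in these values was not tested.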

How the results depend on the processing

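Counts of called genes were recomputed under each alternative. Shares of all genes were not computed for renewed scaling, the replicate block or the loss of a single array outside the lower pair. Counts under these stand without them. Centring and quantile below stand for median centring and renewed quantile normalization, each fitted with the groups alone, so that both the scaling and the term for the lower pair changed. In 4ET-IP over IgG-IP, the higher count went from 0 to 1 with centring and with quantile (Snord49a), and the H/ACA lower count from 19 to 11 with the groups alone. In 4ET-IP over input, the lower count of 32 became 14 (groups alone), 19 (8 arrays), 15 (centring) and 20 (quantile); for H/ACA genes 17 became 8, 9, 8 and 10; for C/D genes 12 became 6 with the groups alone and 6 with centring; for scaRNA genes 3 became 0 and 1; and the higher count of 3 became 1 with the groups alone and 1 with quantile. In IgG-IP over input, the lower count of 1 became 0 with the groups alone and 2 with the replicate block, and the H/ACA higher count of 11 became 7 with centring and 8 with the groups alone. Leaving out 1 array at a time gave, in 4ET-IP over IgG-IP, 32 to 52 lower and 0 to 1 higher (H/ACA 10 to 20, C/D 17 to 28, scaRNA 4 to 5); in 4ET-IP over input, 16 to 35 lower and 1 to 4 higher (H/ACA 7 to 18, C/D 8 to 14, scaRNA 0 to 3); and in IgG-IP over input, 27 to 33 higher and 0 to 1 lower (H/ACA 10 to 12, C/D 13 to 17). The cause was not tested. Differences between the pull-downs that changed sign were all uncalled: Snora15 (0.02 centring, 0.039 quantile), Snord15a (-0.14 groups alone; -0.014 to 0.56 leaving out arrays), Snord37 (-0.14; -0.10 to 0.25), Snord55 (-0.10 groups alone, -0.07 on 8 arrays; -0.23 to 0.16), Snord66 (0.023 on 8 arrays, 0.083 with the block; -0.55 to 0.54) and Snord88a (0.089 block, 0.11 centring, 0.085 quantile; -0.35 to 0.34). In IgG-IP over input, leaving out arrays gave -0.88 to 0.082 for Snora7a and -0.68 to 0.079 for Snord16a. The median of all genes between the pull-downs was 0.03, and -0.19 with the groups alone, 0.25 with centring and 0.14 with quantile.

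With the replicate number as a block, 53 genes were lower between the pull-downs and 35 lower than input. The share of all genes called in that fit was not computed. Same-numbered 4ET-IP and input arrays deviated together (r = 0.62, 0.24 and 0.28), but outside the lower pair r was 0.044 and 0.0085, and same-numbered IgG-IP and 4ET-IP arrays gave -0.067 and 0.022. Same-numbered IgG-IP and input arrays gave -0.023, 0.080 and 0.32, and on the 8 arrays 0.14, 0.091 and 0.25, where different numbers gave -0.20 to 0.076. Not every pair passed 0.1, so the numbers were not taken as pairs. Whether IgG-IP and input are paired by number was not settled by this. Outside the lower pair the deviations of the 4ET-IP arrays mirror each other, so their r cannot decide on pairing. A planned search for the C box in member sequences was not run. Arrays carry no detection calls, so low values such as those of Snord37 or Snord1b may lie near background.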
